A study of Mus musculus with 6 samples.

Results

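The microarray experiment set embryos injected with an antibody against TEAD4 against every control embryo on the same array platform, and all 30175 genes annotated to 1 symbol were compared. There were 6 arrays, each with the RNA of 1 pool of 10 mouse embryos, and 2 pools (a and b) per group. The anti-TEAD4 group received a mouse monoclonal antibody against TEAD4 together with mCherry-Trim21 mRNA, the anti-GFP group a mouse monoclonal antibody with no target in these wildtype embryos together with the same mRNA, and the mCherry-Trim21 mRNA group the mRNA alone. Zygotes of B6C3F1 females and CD1 males were injected on the same day, also with dextran beads, and every group therefore carried Trim21 mRNA and an injection. All were collected 72 h after injection and 96 h into culture, at 4 days post coitum and Theiler stage 5 per the labels. The sample titles call the anti-TEAD4 pools morulae or blastocysts and the control pools blastocysts. The labels also describe an absent cavity, or a small and aberrant one, in the anti-TEAD4 pools, and a normal one in the control pools. A pool is not a single embryo, so the spread among embryos within a pool was not measured, and nothing in the labels says that pools of a group were separate cultures. P values therefore measure the spread between these pools. As whole embryos were used, fewer cells of a type and less RNA per cell cannot be told apart in any value below.

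TEAD4 is a transcription factor that binds DNA next to the coactivator YAP in the outer cells of the cleaving embryo. These cells become the trophectoderm, the epithelium that pumps fluid into the blastocyst cavity and later forms the placenta, whereas the inner cells form the pluripotent epiblast and the primitive endoderm. Hippo signalling in the inner cells keeps YAP out of the nucleus. In TRIM21-mediated protein depletion, an antibody bound to its target is recognised by the ubiquitin ligase TRIM21 and the complex is sent to the proteasome, so that the protein and not the mRNA is removed.

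Values are log2 intensities after robust multiarray averaging, and a difference of 1 is a 2-fold difference. A gene was read from its brightest row. Levels of different genes are not compared, since each has its own probes. Differences are the mean of the anti-TEAD4 pools minus the mean of both control group means, with the standard error (SE) and p from limma over all 6 arrays, adjusted by Benjamini-Hochberg over all genes. The 1381 olfactory and vomeronasal receptor genes, which belong to sensory neurons, served to set a level for genes that are hardly expressed: their 95th percentile on each array is called the receptor level. It was 4.91 and 4.57 in anti-TEAD4 pools a and b, and 4.45 to 4.58 in the control pools.

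Anti-TEAD4 pool a stood apart from the other arrays. Its median over all rows was 4.50, against 4.24 in pool b and 4.19 to 4.29 in the control pools. Its mean correlation with the other arrays over genes was 0.975, against 0.987 for pool b and 0.986 to 0.989 for the control pools. In pool a, 14502 genes lay above the receptor level, against 15766 in pool b and 15595 to 16312 in the control pools. For this reason the values of both anti-TEAD4 pools are given for the named genes and for most lists. In pool b alone the balance of the comparison was the other way, as given below.

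The targeted gene and the ligase were measured first. Tead4 mRNA was at 8.44 and 8.95 in the anti-TEAD4 pools, against 9.30 and 9.16 in the anti-GFP pools and 9.40 and 9.40 in the mCherry-Trim21 mRNA pools. Both anti-TEAD4 pools lay below all 4 control pools, by 0.62 on average (SE 0.18, adjusted p = 0.497), and the antibody acts on the protein, which an array does not measure. Trim21 was at 12.11 and 11.47, against 10.16 and 10.60 in the anti-GFP pools and 9.05 and 7.56 in the mCherry-Trim21 mRNA pools. The groups did not overlap, but the array cannot separate embryonic Trim21 transcript from the injected mRNA.

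No gene passed an adjusted p under 0.05 in limma (0.0% of 30175), and the lowest adjusted p was 0.102. At an unadjusted p under 0.01 there were 677 genes (2.24%), of which 226 (0.749%) were higher and 451 (1.49%) lower in the anti-TEAD4 pools, and 2567 genes (8.51%) had an unadjusted p under 0.05, 1226 of them higher (4.06%) and 1341 lower (4.44%). Both anti-TEAD4 pools lay below all 4 control pools for 2317 genes (7.68%) and above all of them for 3453 genes (11.4%). With a mean difference of at least 1 as well, 358 genes (1.19%) lay below and 146 genes (0.484%) above, 504 in all (1.67%). All 358 of the lower genes, and 133 of the 146 higher ones, were above the receptor level in every pool of at least 1 group. Scaling bears on this balance: centring each array on its median shifted the median difference of all genes by −0.13, and then 486 genes lay below and 75 above, so that the higher share was 13.4% in place of 29.0%, and 105 of 554 genes at an unadjusted p under 0.01 were higher, 19% in place of 33.4%. Pool a bears on it more: without that array, 226 genes lay below and 296 above by at least 1, and at an unadjusted p under 0.01 373 genes were lower and 524 higher. An exact permutation test of 2 pools against 4 cannot reach an unadjusted p of 0.05, so single genes were tested with limma alone.

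**Figure D1:**
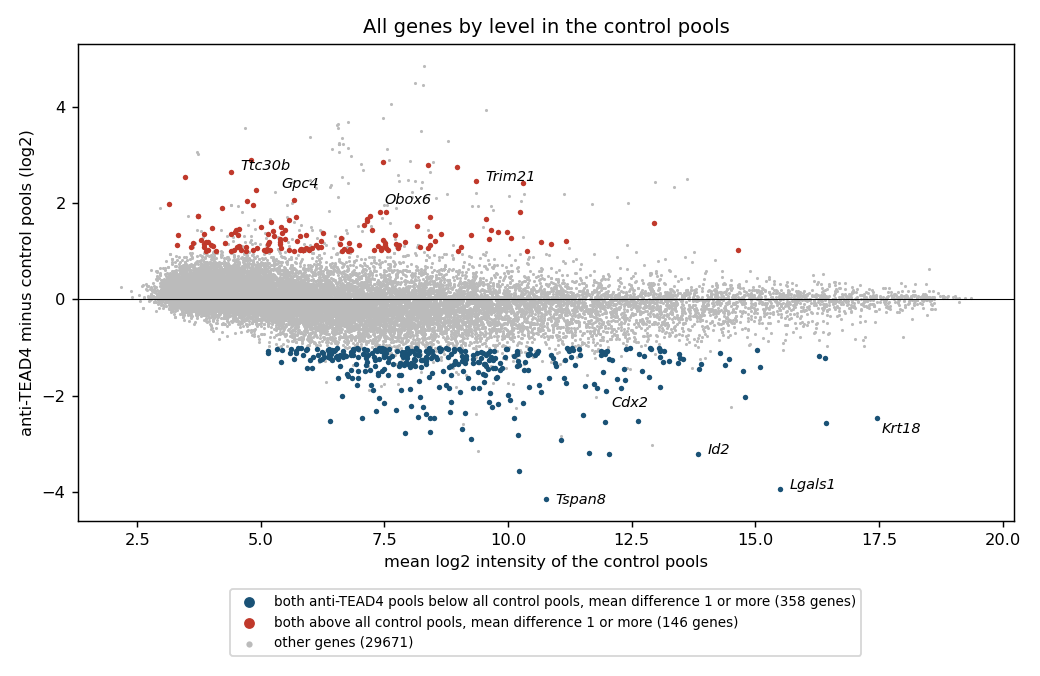
Each point is a gene, with the mean log2 intensity of the control pools on the horizontal axis and the difference, anti-TEAD4 minus control pools (log2), on the vertical axis. The 358 genes with both anti-TEAD4 pools below all control pools and a mean difference of at least 1 are dark blue, the 146 genes above them are red, and all other genes are grey, which includes genes with larger differences whose pools overlap.

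Tspan8, Lgals1 and Id2 were among the genes furthest below the control pools. Tspan8, a tetraspanin of the cell membrane, was at 6.63 and 6.61 in the anti-TEAD4 pools, against 9.93 and 11.75 in the anti-GFP pools and 10.87 and 10.47 in the mCherry-Trim21 mRNA pools, 17.6-fold lower (difference −4.14, SE 0.50, adjusted p = 0.195). Lgals1, a galectin that binds sugars on the cell surface, was at 11.37 and 11.78, against 15.21 and 15.82 with anti-GFP and 15.57 and 15.42 with mRNA alone, 15.2-fold lower (SE 0.23 on the log2 scale, adjusted p = 0.102). Id2, which holds basic helix-loop-helix factors in inactive pairs, was at 10.35 and 10.92, against 13.69 and 13.99 with anti-GFP and 13.82 and 13.82 with mRNA alone, 9.16-fold lower (SE 0.20, adjusted p = 0.102). In each of these genes the gap between the groups was wider than the spread within either. The keratins Krt8 and Krt18, which pair into the first intermediate filaments of the embryo, differed by more than 2 on average. Krt18 was at 14.69 and 15.28 in the anti-TEAD4 pools, against 17.37 and 17.60 with anti-GFP and 17.50 and 17.34 with mRNA alone, and Krt8 at 12.99 and 14.73, against 16.57 and 16.14 with anti-GFP and 16.40 and 16.60 with mRNA alone. Pool a was the lower pool for both keratins, and for Krt8 the anti-TEAD4 pools differed by more than a unit from each other.

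Transporters, enzymes and proteases were among the other genes at this end. Slc44a4, a choline transporter-like protein, was at 6.09 and 6.60 in the anti-TEAD4 pools, against 9.01 and 9.53 with anti-GFP and 9.26 and 9.18 with mRNA alone. Slc15a2, which carries small peptides into cells, was at 4.71 and 4.44, against 6.67 and 7.68 with anti-GFP and 7.40 and 6.43 with mRNA alone, and in both anti-TEAD4 pools it lay under the receptor level. The membrane-bound serine protease Tmprss2 was at 5.09 and 5.18, against 7.48 and 8.02 with anti-GFP and 8.25 and 7.90 with mRNA alone, a difference of −2.78 (SE 0.21, adjusted p = 0.102). Klk7, a secreted kallikrein protease, was at 5.92 and 6.17, against 8.03 to 8.41 over the control pools, and Prss32, another serine protease, at 5.25 and 4.79, against 7.17 to 7.66. These proteases thus lay within 0.5 of each other between the anti-TEAD4 pools and at least 1.8 below the lowest control pool. Pool a was the lower anti-TEAD4 pool in most of the remaining members of the 20. The scaffold Slc9a3r1, which ties membrane proteins to the actin cortex, was at 7.81 and 9.09, against 11.37 to 11.87 over the control pools (difference −3.18, SE 0.37). Dppa1 was at 9.38 and 10.81, against 12.44 to 12.87 (−2.53, SE 0.41), and the tyrosine kinase Frk at 6.13 and 7.38, against 8.73 to 9.57 (−2.36, SE 0.41). In these 3 genes pool a lay more than 1 below pool b, and the difference is smaller in pool b alone. The same holds for the glutathione enzyme Mgst3, at 5.91 and 7.06, against 8.40 to 9.50 (−2.34, SE 0.39), the tyrosine-degrading enzyme Tat, at 5.16 and 6.31, against 7.89 to 8.52 (−2.44, SE 0.36), and the actin linker moesin, Msn, at 6.92 and 7.95, against 9.51 to 10.06 (−2.24, SE 0.32). The annexin Anxa3 was at 5.00 and 5.89, against 7.49 to 8.03 (−2.29, SE 0.30), and Gsta4, another glutathione enzyme, at 9.23 and 9.01, against 10.99 to 12.05 (−2.39, SE 0.26), so that Gsta4 alone of these 8 was lower in pool b. The anti-TEAD4 pools lay furthest apart for Adh1, an alcohol dehydrogenase (difference −3.57, SE 0.90), and Cstdc6 (−2.69, SE 0.68). Adh1 was at 4.96 in pool a and 8.34 in pool b, against 9.91 to 10.55 over the control pools, and Cstdc6 at 5.16 in pool a and 7.57 in pool b, against 8.56 to 9.68.

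**Figure D2:**
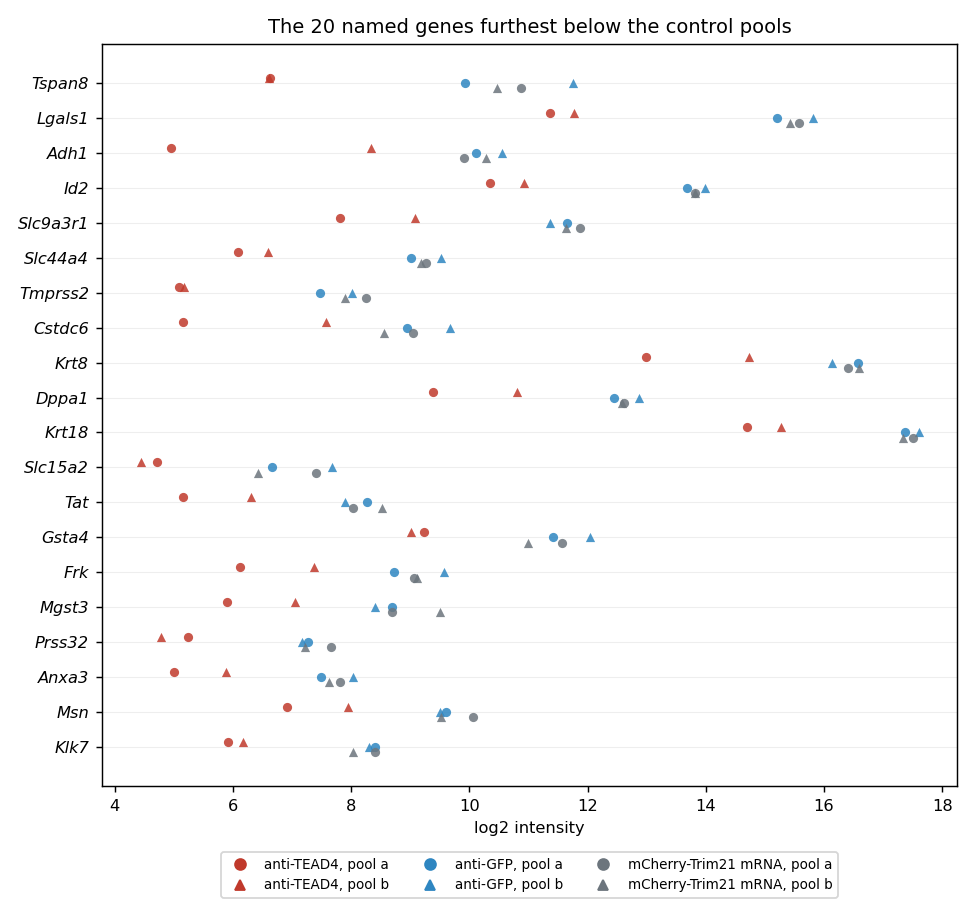
Log2 intensity (horizontal axis) of the 20 named genes furthest below the control pools, in each of the 6 pools: red for anti-TEAD4, blue for anti-GFP and grey for mCherry-Trim21 mRNA, with circles for pool a and triangles for pool b. By the rule that chose these genes, both red symbols lie left of all 4 others. They lie closely together for Tspan8 and Tmprss2 and far apart for Adh1 and Cstdc6.

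Ttc30b, Obox6 and Gpc4 were among the genes furthest above the control pools. Ttc30b, a protein of transport within cilia, was at 7.38 and 6.70 in the anti-TEAD4 pools, against 4.46 and 4.13 with anti-GFP and 3.71 and 5.28 with mRNA alone (difference 2.64, SE 0.47, adjusted p = 0.312). In anti-GFP pool b and mCherry-Trim21 mRNA pool a Ttc30b lay under the receptor level. Obox6, an oocyte-specific homeobox gene, was at 8.87 and 9.00, against 7.65 and 7.36 with anti-GFP and 6.81 and 6.99 with mRNA alone, 3.32-fold higher (SE 0.15 on the log2 scale, adjusted p = 0.135). Gpc4, a glypican of the cell surface that binds growth factors, was at 7.38 and 7.49, against 5.40 and 5.50 with anti-GFP and 5.88 and 6.10 with mRNA alone, 3.28-fold higher (SE 0.14, adjusted p = 0.102). For Obox6 and Gpc4 the anti-TEAD4 pools lay within 0.2 of each other, and the control groups lay nearer to each other than to them. Gpc4 has a second, dimmer row, and the mean of its rows gave a difference of 1.0.

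Ccn1, a matricellular protein and a textbook target of YAP with TEAD factors in other cells, was at 9.83 and 9.53 in the anti-TEAD4 pools, against 8.57 and 7.85 with anti-GFP and 8.04 and 8.13 with mRNA alone (difference 1.53, SE 0.24, adjusted p = 0.255). Nanos1, an RNA-binding protein of the germ line, was at 9.10 and 8.45, against 6.93 and 7.15 with anti-GFP and 7.57 and 6.97 with mRNA alone. Uchl1, an enzyme that removes ubiquitin, was at 8.38 and 8.88, against 6.89 and 6.93 with anti-GFP and 7.31 and 7.20 with mRNA alone. That the groups do not overlap for these genes follows from the rule that chose them. The Golgi protein Dipk2a was at 9.03 and 9.43, against 7.16 to 7.68 over the control pools (difference 1.82, SE 0.24), the growth factor Nrg1 at 6.45 and 6.85, against 4.98 to 5.75 (1.41, SE 0.23), and the stress-inducible chaperone Hspa1a at 5.83 and 5.92, against 4.25 to 4.75 (1.34, SE 0.18). Under other ways of processing, the difference for Nrg1 ranged from 0.83 to 1.61. In other genes the pools parted: the homeobox gene Barx2 was at 6.15 and 7.45, against 5.06 to 5.43 (1.6, SE 0.36), with differences of 0.95 in pool a and 2.25 in pool b. The peptide-processing enzyme Cpe was at 7.07 and 5.93, against 4.91 to 5.08 (1.5, SE 0.32), with 2.07 in pool a and 0.92 in pool b, and the kinase Plk2 at 10.70 and 11.49, against 9.18 to 9.97 (1.44, SE 0.32), with 1.05 in pool a and 1.84 in pool b. Which pool was further from the controls thus varied from gene to gene. The imprinted Peg10 was at 6.76 and 7.65, against 4.95 to 6.39 (1.64, SE 0.39), and Sp110 at 10.94 and 11.77, against 9.30 to 10.51 (1.39, SE 0.36), both higher in pool b. The annexin Anxa8 was at 9.04 and 8.55, against 6.15 to 7.60 (1.66, SE 0.42), and Apol7e at 5.42 and 5.02, against 3.32 to 4.20 (1.36, SE 0.24), both higher in pool a. Apol7e lay under the receptor level in every control pool, and Hspa1a in anti-GFP pool b. The anti-TEAD4 pools were close to each other for the transketolase-like Tktl1, at 9.27 and 9.41, against 6.64 to 8.22 (1.81, SE 0.43), Allc, at 8.54 and 8.81, against 6.32 to 7.61 (1.44, SE 0.32), and the arginase Arg2, at 7.01 and 7.21, against 5.41 to 6.52 (1.32, SE 0.33). The adjusted p of these 13 genes from limma ran from 0.214 for Dipk2a to 0.445 for Sp110.

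**Figure D3:**
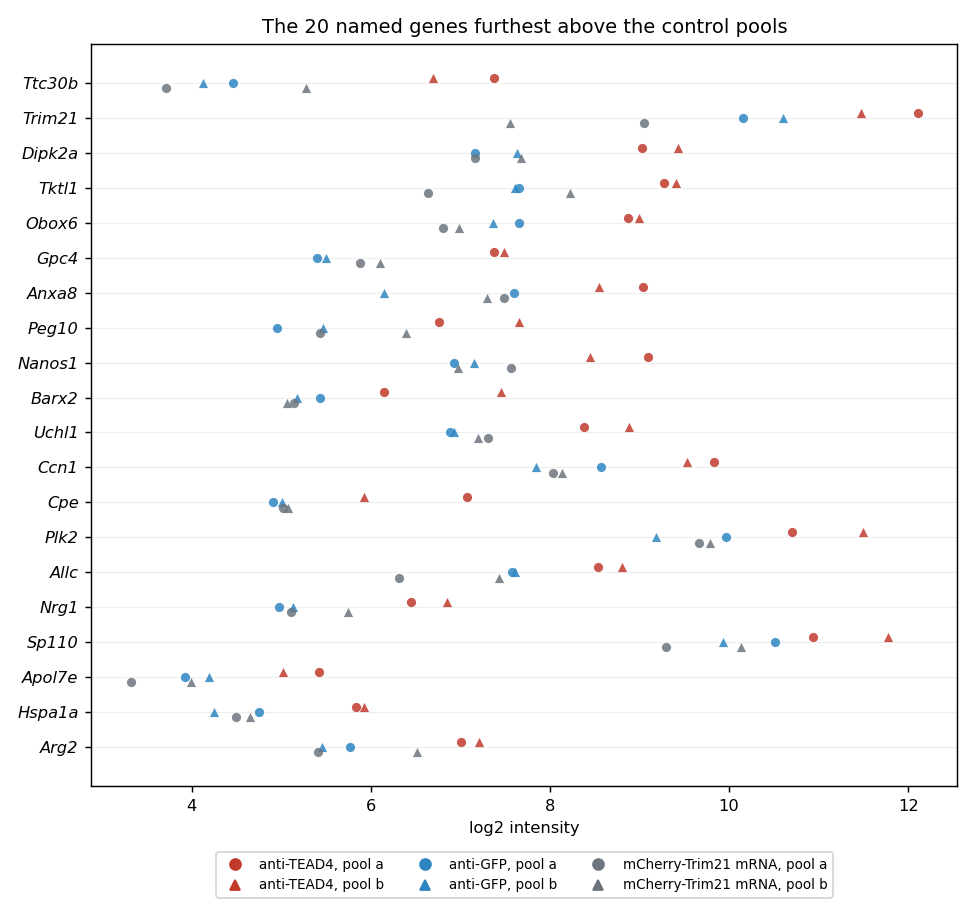
Log2 intensity (horizontal axis) of the 20 named genes furthest above the control pools, in each of the 6 pools, with red for anti-TEAD4, blue for anti-GFP and grey for mCherry-Trim21 mRNA, circles for pool a and triangles for pool b. By the rule that chose these genes, both red symbols lie right of all 4 others. For Trim21, which the injected mRNA also supplies, the control pools spread from 7.56 to 10.60.

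Promoter sequences of these genes were searched for the core of the element that TEAD factors bind, GGAATG, or CATTCC on the other strand. The search covered the 250 bases before each listed start of a gene in RefSeq (build GRCm38.p6). A listed start need not be the outer end of the gene. Among the genes furthest from the control pools, the windows of Tmprss2, Tspan8, Tat, Apol7e and Sp110 lie inside the gene. Those of Slc44a4 and Slc15a2 run into it. A match describes letters in this window and is not a binding site. Of 258 genes with a promoter here among the 358 that lay below the control pools by at least 1, 44 held a match (17.1%), and of 78 among the 146 that lay above, 12 did (15.4%), beside 13.5% of all 17972 genes with a promoter and 12.6% of the 9453 above the receptor level. Among the named genes Tmprss2 from the lower end, and Gpc4, Nanos1 and Ccn1 from the higher end, held 1 match each. Their windows are printed here because they show the motif on both sides of the comparison. Capitals mark the match, the strand is that of the gene, and the positions are chr16:97611196-97611445 (minus) for Tmprss2, chrX:52164924-52165173 (minus) for Gpc4, chr19:60755737-60755986 (plus) for Nanos1 and chr3:145649986-145650235 (minus) for Ccn1.
Tmprss2: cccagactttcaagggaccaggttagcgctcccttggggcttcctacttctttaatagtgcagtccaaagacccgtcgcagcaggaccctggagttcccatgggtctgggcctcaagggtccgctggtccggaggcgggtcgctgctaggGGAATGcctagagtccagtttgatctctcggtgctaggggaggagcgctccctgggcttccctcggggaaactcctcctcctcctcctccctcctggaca
Gpc4: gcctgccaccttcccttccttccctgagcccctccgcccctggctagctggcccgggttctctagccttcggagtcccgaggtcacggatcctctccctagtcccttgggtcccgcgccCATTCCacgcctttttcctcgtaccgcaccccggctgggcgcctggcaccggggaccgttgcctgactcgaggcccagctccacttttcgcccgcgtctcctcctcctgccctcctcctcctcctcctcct
Nanos1: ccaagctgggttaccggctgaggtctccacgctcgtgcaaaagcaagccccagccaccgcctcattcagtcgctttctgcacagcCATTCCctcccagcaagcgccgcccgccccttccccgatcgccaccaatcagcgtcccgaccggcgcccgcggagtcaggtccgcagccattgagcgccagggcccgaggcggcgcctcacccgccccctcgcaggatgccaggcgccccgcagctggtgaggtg
Ccn1: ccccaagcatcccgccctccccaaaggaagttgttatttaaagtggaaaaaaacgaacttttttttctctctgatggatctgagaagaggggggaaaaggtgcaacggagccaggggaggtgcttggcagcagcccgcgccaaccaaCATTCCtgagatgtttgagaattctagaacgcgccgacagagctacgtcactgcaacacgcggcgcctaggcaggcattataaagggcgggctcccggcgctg
No match lay in the same window of Cdx2, Id2, Krt8, Krt18, Tspan8 or Slc44a4, which says only that these letters are not there.

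Factors of the trophectoderm were lower in the anti-TEAD4 pools or level with the controls, and none lay above them. Of 14 trophectoderm transcription factors measured, 7 lay in both anti-TEAD4 pools below all 4 control pools (50.0%, beside 7.68% of all genes), 4 of them with an unadjusted p under 0.01 and none with an adjusted p under 0.05. Cdx2, the homeobox gene of the trophectoderm, was at 9.73 and 10.45, against 12.08 and 11.68 with anti-GFP and 12.07 and 12.08 with mRNA alone (difference −1.89, SE 0.24, adjusted p = 0.209). Tfap2a, an AP-2 factor of epithelia, was at 6.53 and 6.48, against 8.17 and 7.97 with anti-GFP and 8.33 and 8.34 with mRNA alone (−1.70, SE 0.13, adjusted p = 0.102). For Tfap2a the anti-TEAD4 pools were nearly equal, which sets it apart from the T-box gene Eomes, at 8.37 in pool a and 9.79 in pool b, against 9.80 to 9.97 over the control pools. Mbnl3, a splicing regulator that was on this list, was at 4.73 and 4.47, against 5.80 to 6.20, and thus under the receptor level in both anti-TEAD4 pools. Msx2 was at 6.17 and 5.75, against 6.38 to 6.59, and Gata2 at 4.86 and 4.95, against 5.17 to 5.57. Related factors overlapped the controls: Tfap2c, the AP-2 factor of the whole early embryo, was at 7.77 and 7.55, against 7.56 to 8.36, and Klf6 at 11.25 and 12.09, against 11.59 to 11.87. The later trophoblast factors Elf5, Hand1 and Dlx3 lay under the receptor level in every pool. The median difference of the 14 was −0.47, with −0.49 in pool a and −0.34 in pool b, beside 0.06 for all genes.

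Genes of the trophectoderm as an epithelium stood further from the controls than its factors. Of 20 measured, 16 lay below all control pools (80.0%, beside 7.68% of all genes and 12.7% of those above the receptor level), 12 of them with an unadjusted p under 0.01 (beside 1.49% of all genes), and the median difference was −1.42, with −1.61 in pool a and −1.02 in pool b. Lrp2 and Cubn, endocytic receptors that work together in absorptive epithelia, and their adaptor Dab2 were all on the lower side. Lrp2 was at 13.05 and 13.47, against 14.99 and 14.55 with anti-GFP and 14.62 and 14.83 with mRNA alone (difference −1.49, SE 0.20, adjusted p = 0.225). Dab2 was at 10.32 and 10.40, against 10.97 to 11.25 over the control pools, and Cubn at 7.97 and 8.12, against 8.39 to 9.08. Epcam, an adhesion molecule of epithelial cells, was at 12.12 and 11.85, against 12.87 to 13.28, and Lcp1, which bundles actin, at 6.37 and 6.68, against 7.77 to 8.03. The exceptions were Fgfr2, Amn, Krt19 and Lgals3, whose pools overlapped the controls. Krt8, Krt18, Lgals1 and Slc44a4 were named in the study from these same arrays, and the lists were written with earlier results known, so their direction is not independent evidence.

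Junction genes followed the same side. Of 12 tight junction genes, 8 lay below all control pools (66.7%), and of 14 genes of adherens junctions and desmosomes, 11 did (78.6%), beside 7.68% of all genes and 12.7% of those above the receptor level, with medians of −0.67 and −0.69 and no gene of either list above the controls. The claudin Cldn6 was at 6.97 and 7.03, against 8.33 and 8.01 with anti-GFP and 8.44 and 8.28 with mRNA alone (difference −1.26, SE 0.15, adjusted p = 0.189). F11r, a junctional adhesion molecule, was at 10.79 and 10.81, against 11.70 to 12.19 over the control pools, and Tjp1, the scaffold ZO-1, at 8.48 and 8.46, against 8.70 to 9.44. In these 3 genes the anti-TEAD4 pools lay within 0.1 of each other. Cldn4 differed from them, with 11.43 in pool a and 14.09 in pool b, against 14.19 to 15.13. Among desmosomal genes the cadherin Dsc2 was at 5.10 and 5.24, against 6.74 and 7.10 with anti-GFP and 7.17 and 6.74 with mRNA alone (−1.77, SE 0.19, adjusted p = 0.175), the cadherin Dsg2 at 6.74 and 7.12, against 7.69 to 7.93, the plaque protein Dsp at 9.54 and 9.66, against 10.26 to 10.62, and Pkp2 at 6.92 and 8.20, against 8.77 to 9.25. The classical cadherin Cdh1 was at 12.45 and 12.88, against 13.15 to 13.88. Cldn3, Cgn, Marveld2, Marveld3, Jup, Pkp3 and Evpl overlapped the controls, so the difference did not take in every junction gene.

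Of 20 polarity genes 7 lay below all control pools (35%, beside 7.68% of all genes and 12.7% of those above the receptor level) and none above. The median was −0.47, but it was −0.84 in pool a and −0.18 in pool b, where 1 control pool was at −0.15. Prkcz, an atypical protein kinase C of the apical domain, was at 6.09 and 6.45, against 6.74 to 7.32. Of 29 genes of the actin cytoskeleton and annexins 12 lay below (41.4%) and 1 above (3.45%), among them the nonmuscle myosin Myh10 at 7.71 and 8.55, against 9.59 to 9.95, and the tropomyosin Tpm1 at 8.45 and 8.54, against 9.21 to 9.54. Actb, often used as a reference gene, was at 14.96 and 16.02, against 16.18 to 16.61. The housekeeping gene Hprt was at 17.29 and 16.99, against 16.62 to 17.18, and overlapped. The 9 housekeeping genes measured had a median of −0.34 (−0.45 in pool a and −0.21 in pool b). Of them 3 lay below all control pools (33.3%) and none above. Of 13 genes of ion pumps and aquaporins, which move the fluid of the cavity, 5 lay below (38.5%) and 2 above (15.4%). The sodium pump subunit Atp1b1 was at 10.88 and 10.71, against 11.92 and 12.32 with anti-GFP and 11.85 and 12.06 with mRNA alone (difference −1.24, SE 0.17, adjusted p = 0.225). Aqp9 was at 5.59 and 5.99, against 6.25 to 6.85, while Aqp3 was at 14.05 and 14.71, against 13.78 to 14.88, and overlapped.

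**Figure D4:**
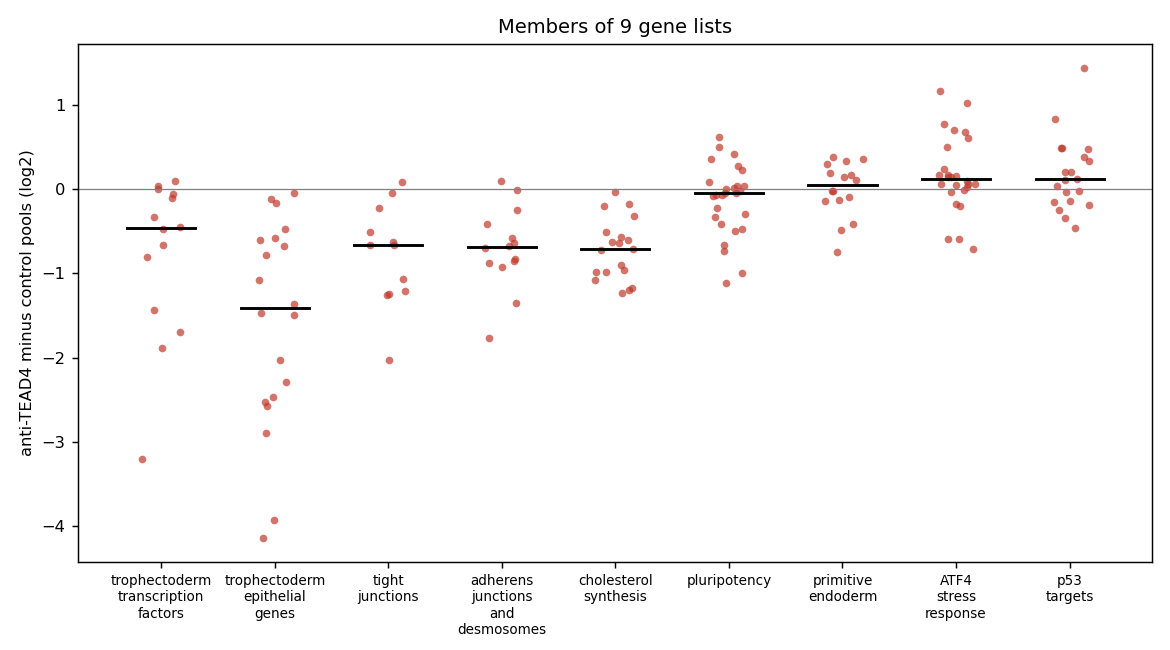
Each point is a gene, and the vertical axis gives its difference, anti-TEAD4 minus control pools (log2), for the members of 9 gene lists. Black bars are medians, from −1.42 for trophectoderm epithelial genes to 0.12 for ATF4 and p53 genes.

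The lists of the inner cell mass were spread around the level of all genes. Of 27 pluripotency genes 4 lay below (14.8%) and 3 above all control pools (11.1%), near the 7.68% and 11.4% of all genes and the 12.7% and 7.73% of those above the receptor level. The median was −0.05, and 2 lower genes and 1 higher gene had an unadjusted p under 0.01. Sox2, a factor of the epiblast, was at 9.21 and 9.22, against 8.45 and 8.32 with anti-GFP and 8.69 and 8.97 with mRNA alone (difference 0.61, SE 0.14, adjusted p = 0.400). Fgf4, the growth factor that the epiblast secretes, was at 5.46 and 5.38, against 4.64 to 5.34, and Il6st, a coreceptor of leukaemia inhibitory factor, at 6.70 and 6.60, against 5.98 to 6.52. Klf5, which both lineages use, was at 11.33 and 11.59, against 12.35 and 12.70 with anti-GFP and 12.43 and 12.36 with mRNA alone (−1.0, SE 0.16), and Stat3 at 7.91 and 8.62, against 9.07 to 9.55. Nanog at 16.08 and 16.81, against 16.29 to 16.63, and Pou5f1 at 11.95 and 12.59, against 12.46 to 12.64, lay on or around the control range, each lower in pool a. Among 16 primitive endoderm genes 2 lay below and 2 above all control pools (12.5% each). Gata6, the factor that opens this lineage, was at 12.90 and 12.92, against 12.39 to 13.10, while Sox17 was at 4.50 and 3.95, under the receptor level in all pools. The secreted matrix protein Sparc was at 8.17 and 8.03, against 8.23 to 9.25, and the laminin chain Lamb1 at 8.71 and 8.71, against 8.03 to 8.70. Under median centring the median of the primitive endoderm list was −0.09 and that of the pluripotency list −0.18, so no direction is given for the primitive endoderm list, and the pluripotency list had 0.04 in pool b alone.

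Hippo pathway genes and TEAD cofactors included 10 of 23 below all control pools (43.5%, beside 7.68% of all genes and 12.7% of those above the receptor level) and none above. The median was −0.37, with −0.41 in pool a and −0.13 in pool b. Vgll3, a cofactor that binds TEAD factors, was at 5.54 and 5.16, against 6.26 to 6.58 (difference −1.02, SE 0.18), and Vgll4, another, at 4.79 and 5.58, against 5.66 to 6.06. Amot, which holds YAP at junctions, was at 7.23 and 7.16, against 7.74 to 8.30, and Nf2, which activates the kinases, at 7.14 and 7.5, against 7.75 to 8.21. Tead1 was at 9.37 and 10.04, against 10.29 to 10.58. The kinases Lats1 and Lats2 and the coactivator Wwtr1 overlapped the controls, and Yap1 was at 5.48 and 5.58, against 5.59 to 5.77. Of 20 genes known as YAP and TEAD targets in other cells, 2 lay below (10.0%) and 1 above (5.0%), near the 7.68% and 11.4% of all genes, and the median was 0.00. The gene above was Ccn1, while Ccn2, a gene often read beside it, was at 4.29 and 4.42, against 4.17 to 4.41, under the receptor level in every pool. Dock5 was at 5.57 and 5.96, against 6.31 to 6.71, and Myof at 4.82 and 4.63, against 4.95 to 5.59.

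In the other signalling lists single genes stood out, and medians over all arrays and genes stayed within 0.1 of 0. With dim genes left out they were −0.18 for Nodal, BMP and ID genes and −0.22 for the Wnt pathway. Of 27 Nodal, BMP and ID genes 7 lay below all control pools (25.9%) and 2 above (7.41%). The share below was 7.68% of all genes and 12.7% of those above the receptor level. Dusp6, a phosphatase that ERK signalling induces, was at 5.42 and 5.36, against 6.13 to 6.58 (difference −0.94, SE 0.14). Id3 was at 5.93 and 6.07, against 5.16 to 5.67, on the other side from Id2. Bmpr1a, a receptor of bone morphogenetic proteins, was at 6.50 in pool a and 8.16 in pool b, against 8.36 to 8.91. Notch1 was at 8.22 and 8.98, against 7.12 to 7.82 (1.03, SE 0.29), and 5 of 19 Notch pathway genes lay above all control pools (26.3%, beside 11.4% of all genes and 18% of receptor genes) and none below. The others were Hes1, Hes6, Nrarp and Heyl. Heyl lay under the receptor level in every pool, and Nrarp in every pool but anti-TEAD4 pool b. Hes6 lay under it in anti-TEAD4 pool a and in both anti-GFP pools. Hes1, Hes6 and Nrarp differed by 0.23, 0.23 and 0.32, and the list median was −0.09 under median centring, so no direction is given for the list.

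Sterol synthesis was the metabolic list furthest below the controls. Of 19 genes 10 lay below all control pools (52.6%, beside 7.68% of all genes and 12.7% of those above the receptor level) and none above, with a median of −0.71, −1.09 in pool a and −0.44 in pool b. Stard4, which carries cholesterol between membranes, was at 7.28 and 7.40, against 8.49 and 8.70 with anti-GFP and 8.43 and 8.52 with mRNA alone (difference −1.20, SE 0.13, adjusted p = 0.182). Of the enzymes, Fdps was at 12.63 and 13.06, against 13.59 to 13.95, Dhcr7, which makes the last step, at 6.85 and 7.53, against 8.05 to 8.37, and Cyp51 at 7.48 and 7.96, against 8.22 to 8.64. Srebf2, the factor that turns on these enzymes, was at 7.5 and 8.34, against 8.56 to 9.63. The early enzymes Hmgcs1 and Idi1 overlapped the controls. Among 31 genes of fatty acid and triglyceride metabolism 9 lay below (29.0%) and 2 above (6.45%), with a median of −0.48, −0.73 in pool a and −0.13 in pool b. The desaturase Scd1 was at 12.93 and 13.39, against 14.10 to 14.47, and the mitochondrial dehydrogenase Acadm at 10.45 and 10.15, against 11.22 to 11.94. Of 17 genes of choline transport and phosphatidylcholine 6 lay below (35.3%) and 1 above (5.88%), where Slc44a1 was at 7.71 and 8.22, against 9.21 to 9.37, and Slc44a2 at 4.76 and 5.26, against 5.71 to 6.15, alongside Slc44a4.

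Of 51 amino acid transporters 8 lay below and 8 above (15.7% each, beside 7.68% and 11.4% of all genes). At an unadjusted p under 0.01 there were 5 lower and 0 higher, and the median was 0.01, or −0.23 with dim genes left out. Slc6a14, which carries neutral and cationic amino acids, was at 5.21 and 5.58, against 6.99 and 7.61 with anti-GFP and 7.39 and 7.07 with mRNA alone (difference −1.87, SE 0.24), and Slc7a6 was at 8.78 and 9.59, against 10.76 to 10.86. Slc6a8, the creatine transporter, was at 12.09 and 12.07, against 12.68 to 13.08. The glucose transporter Slc2a3 was at 9.85 and 9.56, against 10.67 to 11.21, the hexokinase Hk2 at 6.01 and 5.89, against 6.86 to 7.08, and the glycolytic enzyme Tpi1 at 7.92 and 8.18, against 9.07 to 9.47. Over the 32 genes of glycolysis and pyruvate use 7 lay below (21.9%) and 5 above all control pools (15.6%), with a median of −0.09 (−0.19 in pool a and −0.03 in pool b). Of 17 hypoxia targets, Slc2a3 and Hk2 among them, 4 lay below (23.5%) and 2 above all control pools (11.8%). The shares were 12.7% and 7.73% of genes above the receptor level. The median was −0.07, with −0.33 in pool a and 0.05 in pool b. Ndrg1 was at 6.40 and 6.62, against 7.34 to 8.13, and P4ha1, which hydroxylates collagen, at 8.76 and 8.12, against 7.32 to 7.64.

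In several lists of basic cell functions the anti-TEAD4 pools parted from each other. The 74 mitochondrial ribosomal protein genes had a median of −0.53 in pool a and 0.26 in pool b, the 80 genes of the respiratory chain and ATP synthase −0.53 in pool a and 0.04 in pool b, and the 37 histone genes −0.65 in pool a and 0.20 in pool b. Of 40 DNA replication genes 8 lay below all control pools (20.0%, beside 7.68% of all genes and 12.7% of those above the receptor level) and 1 above, with −0.43 in pool a and −0.13 in pool b, where 1 control pool was at −0.16. The licensing factor Cdc6 was at 8.71 and 8.99, against 10.12 to 10.53 (difference −1.46, SE 0.17, adjusted p = 0.182), and the helicase subunits Mcm4 and Mcm6 were at 11.36 and 11.21, against 11.70 to 11.97, and at 10.66 and 10.59, against 11.07 to 11.89. Cdk2 was at 7.70 and 8.51, against 9.24 to 9.69. The 46 proteasome genes, which the depletion method relies on, had a median of −0.15 in pool a and 0.13 in pool b. Of them 1 lay below all control pools (2.17%, beside the same 7.68% and 12.7%). None lay above, beside 11.4% of all genes and 7.73% of those above the receptor level. The 44 cytosolic ribosomal protein genes had −0.18 in pool a and 0.16 in pool b. Among chromatin genes, 8 of 29 genes of histone methylation and deacetylation lay below all control pools (27.6%, beside the same 7.68% and 12.7%) and none above, with medians of −0.42 in pool a and −0.03 in pool b.

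**Figure D5:**
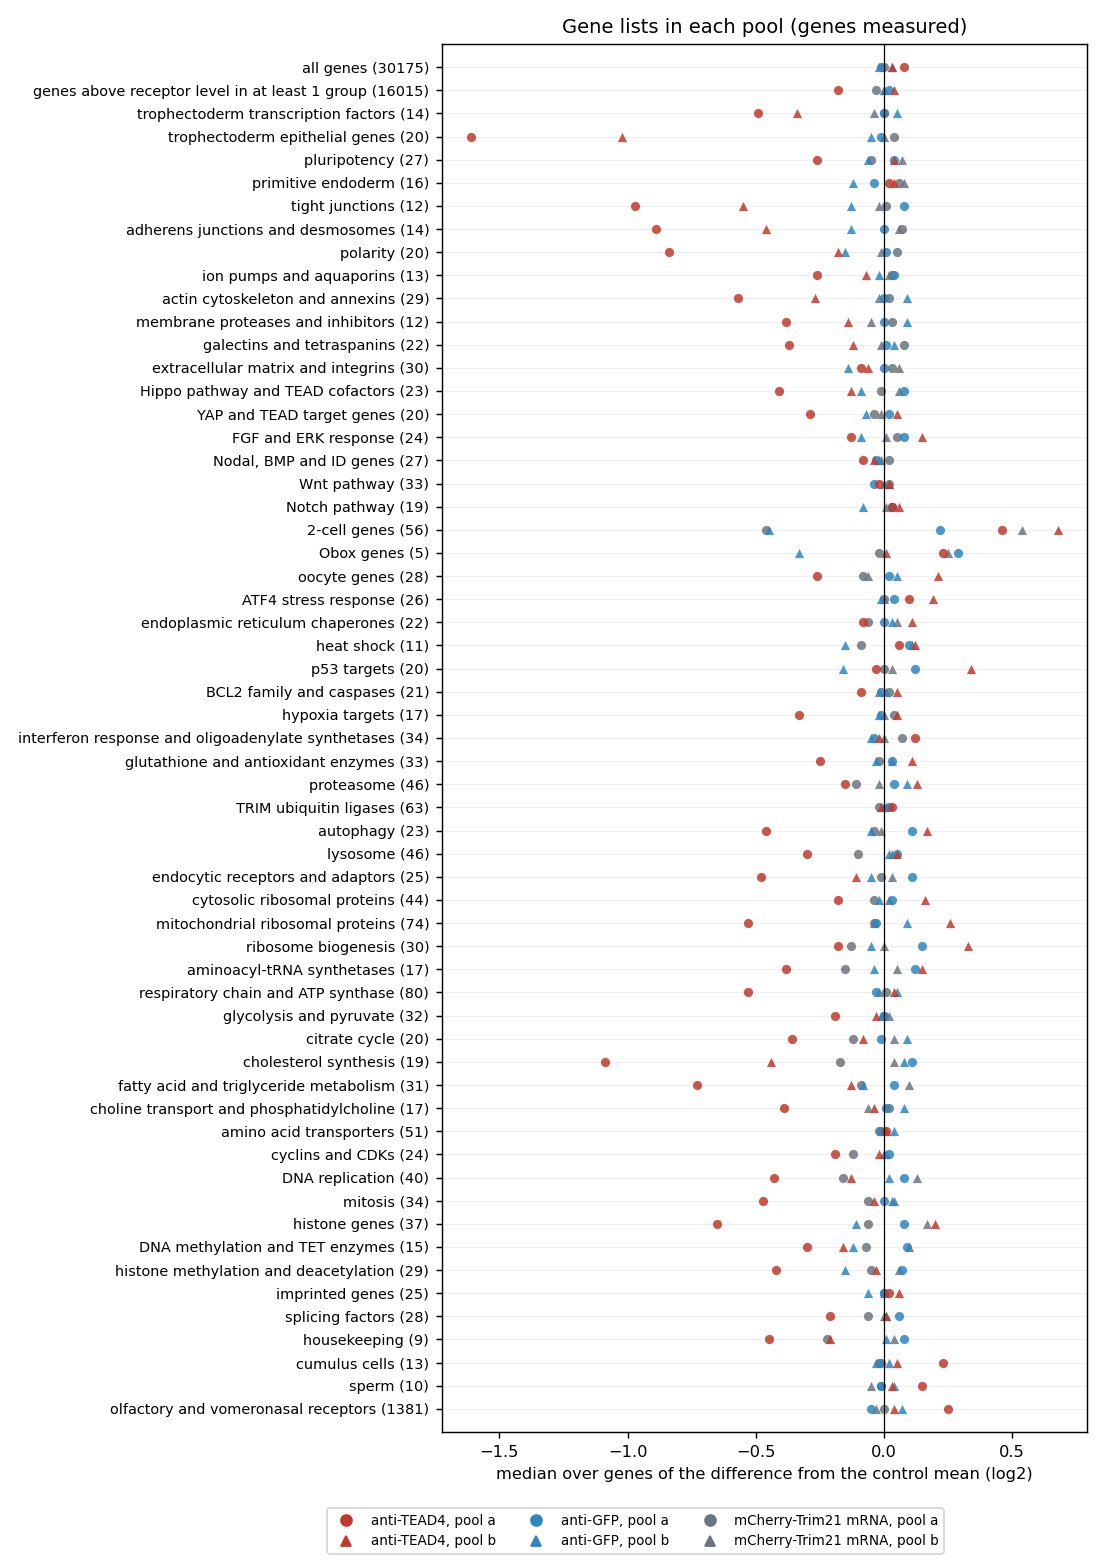
The median, over the genes of each list, of the difference from the control mean (log2, horizontal axis) in each pool, with red for anti-TEAD4, blue for anti-GFP and grey for mCherry-Trim21 mRNA, and circles for pool a and triangles for pool b. The number of genes measured stands beside each list. Both red symbols lie left of all 4 control symbols for trophectoderm, junction and cholesterol lists, while for mitochondrial ribosomal proteins and histones the red circle lies left and the red triangle right of them, and for 2-cell genes the control pools spread from −0.46 to 0.54.

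Genes of the stress responses included some above all control pools, while the medians of these lists lay between −0.07 and 0.12. Of 26 genes of the ATF4 response, which cells mount when amino acids run short or proteins misfold, 7 lay above (26.9%) and none below. The share above was 11.4% of all genes and 7.73% of those above the receptor level. Of 11 heat shock genes 3 lay above (27.3%) and 1 below (9.09%). Atf4 itself was at 10.16 and 10.57, against 9.49 to 9.81, Atf3 at 5.09 and 5.01, against 4.19 to 4.51, the cystathionine lyase Cth at 12.25 and 12.41, against 11.55 to 12.02, and the asparagine synthetase Asns at 8.14 and 9.64, against 7.49 to 8.04. The list median was 0.12, and −0.02 under median centring. Of 20 p53 targets 5 lay above (25%, beside the same 11.4% and 7.73%) and none below, with a median of −0.03 in pool a and 0.34 in pool b. Mdm2, which restrains p53, was at 10.04 and 9.40, against 8.80 to 9.00 (difference 0.83, SE 0.21), Plk2 at 10.70 and 11.49, against 9.18 to 9.97, and Cdkn1a at 13.07 and 14.52, against 13.17 to 13.94, which overlapped. Dnajb9, a chaperone of the endoplasmic reticulum, was at 12.38 and 11.68, against 10.81 to 10.96 (1.16, SE 0.22). Of the 22 chaperone genes 3 lay above the controls (13.6%, beside the same 11.4% and 7.73%) and none below. Among antiviral genes Oas1f was at 5.54 and 5.35, against 6.96 and 6.93 with anti-GFP and 7.53 and 7.45 with mRNA alone (−1.77, SE 0.13, adjusted p = 0.102), and Ifitm2 at 10.99 and 10.75, against 10.02 to 10.32. The lysosomal sialidase Neu1 was at 6.68 and 5.63, against 7.98 to 8.03, the tightest control range among the genes named here.

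The 2-cell genes, which mark the first wave of embryonic transcription and a rare state of pluripotent cells, differed among the control pools more than between the groups. Zscan4c, chosen after its values were seen, was at 10.71 and 10.67 in the anti-TEAD4 pools, against 10.60 and 4.23 with anti-GFP and 3.02 and 12.40 with mRNA alone. The anti-TEAD4 pools thus lay within the control range, above 3 of the control pools and below the last. The preferentially expressed gene Pramel46, chosen in the same way, was at 11.66 and 12.47, against 11.15 and 5.17 with anti-GFP and 4.74 and 14.04 with mRNA alone, in the same order of control pools. Of the 56 genes 6 lay above all control pools (10.7%, beside 11.4% of all genes and 7.73% of those above the receptor level). The share below was 1.79% (1 gene), beside 7.68% and 12.7%. The median was 0.48, with 0.46 in pool a and 0.68 in pool b. The control pools ran from −0.46 to 0.54, so pool b lay above all of them.

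Markers of other cells were examined, since attached cumulus cells or sperm could add RNA. Of 13 cumulus cell genes 2, and of 10 sperm genes 3, were above the receptor level in every pool of at least 1 group. Of the cumulus cell genes 3 lay above all control pools (23.1%, beside 18% of receptor genes) and none below, with a median of 0.2. The protamine Prm1 was at 7.29 in anti-TEAD4 pool a and 6.00 in pool b, against 5.86 to 6.16. Foxl2 and Fshr, 2 genes of the cumulus list, lay under the receptor level in all pools. The receptor genes had medians of 4.01 in pool a and 3.78 in pool b, against 3.68 to 3.82, and 249 of 1381 (18%) lay above all control pools, so that small positive differences of dim genes were common here. Xist, expressed from the inactive X chromosome of females, was at 15.24 and 12.78 in the anti-TEAD4 pools, against 13.78 and 12.54 with anti-GFP and 12.10 and 14.32 with mRNA alone. The Y-linked Eif2s3y was at 6.25 and 7.74, against 7.38 and 8.14 with anti-GFP and 7.57 and 6.35 with mRNA alone. Xist was thus highest and Eif2s3y lowest in anti-TEAD4 pool a and mCherry-Trim21 mRNA pool b, and the part of the sex of the embryos in other results was not tested.

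Each anti-TEAD4 pool was also set alone against the controls. Pool a lay at least 1 from the control mean and outside all control pools for 1980 lower and 1084 higher genes, and pool b for 226 lower and 296 higher genes. Of the 1084 higher genes of pool a, 386 were not above the receptor level in any group, against 22 of the 296 of pool b. Among genes that are not predicted genes, pseudogenes, microRNAs, small nucleolar or ribosomal RNAs by their symbol and lay above the receptor level, in the control pools for lower genes and in the pool itself for higher ones, 680 lower and 148 higher genes differed by at least 1 in pool a while pool b lay inside the control range. In pool b alone there were 9 lower and 58 higher genes of this kind. The widest gap between the pools among them was that of Scarna10, a small RNA of Cajal bodies, at 3.54 in pool a and 9.45 in pool b, against 8.11 to 9.82. Tubb2a, a tubulin, was at 7.60 in pool a and 11.90 in pool b, against 11.31 to 12.26, and Mtln, a mitochondrial micropeptide, at 5.96 and 9.81, against 9.71 to 11.10. In the other direction Klk15, a kallikrein, was at 8.23 in pool a and 4.64 in pool b, against 4.56 to 4.70, and Nxf2, an RNA export factor, at 7.02 and 4.22, against 4.12 to 4.27. For these genes pool b lay inside the control range.

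When the control pools were fitted as 1 group, which leaves 4 residual degrees of freedom, 17 genes passed an adjusted p under 0.05 in limma, and all were lower in the anti-TEAD4 pools. They were Id2, Lgals1, Slc44a4, Klk7, Krt18, Tmprss2, Prss32, Tfap2a and Dsc2, with the values above, and BC053393, Ddah1, Sipa1l1, Flvcr2, Trpm6, Gm12169, Dkkl1 and Prxl2b. Ddah1, which breaks down methylarginines, was at 11.82 and 11.87, against 13.06 to 13.26 over the control pools (difference −1.30, SE 0.11, adjusted p = 0.0416). Flvcr2, a transporter of choline and haem, was at 9.84 and 9.68, against 11.25 to 11.70, and the magnesium channel Trpm6 at 6.16 and 6.33, against 7.61 to 7.98. Their adjusted p in the fit with 3 group means ran from 0.102 to 0.175.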

How the data were processed

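Each of the 6 arrays (Affymetrix Mouse Transcriptome Array 1.0) measured the RNA of 10 embryos, extracted without a DNase digestion. The deposited values are log2 intensities with 2 decimals, which the authors made by robust multiarray averaging in the Expression Console software of Affymetrix (version not given in the sources used here). In 1 deposited column, handled as a score, 1 row held an impossible value, and that row was left out. Of the other 65955 rows, 30637 had 1 gene symbol in the platform annotation, 2176 had several and 33142 had none here. The brightest row by the mean over all arrays stood for each of 30175 genes (354 had several rows), and genes named only by rows with several symbols, Gata3 and Gapdh among them, were not analysed. The array's build was not given in the sources used here, so gene positions come only with the promoter windows, from RefSeq.

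A model with 3 group means was fitted in limma 3.58.1 (R 4.3.3), and the anti-TEAD4 mean was set against the mean of both control groups, with empirical Bayes variances (3 residual and 2.52 prior degrees of freedom) and Benjamini-Hochberg adjustment. Gene lists (59) were described by counts and medians, with no test. The named genes (268 entries) were the 20 with the largest difference on each side, among genes with both anti-TEAD4 pools outside all control pools, an unadjusted p under 0.01 and a level above the receptor level in every pool of the higher side, the 4 with the lowest p in each list, the 10 with the widest gap on each side between anti-TEAD4 pools, and lineage and control genes. Predicted genes, pseudogenes, microRNAs and small nucleolar and ribosomal RNAs were skipped by symbol outside the lists. Where the text gives others, they are members that complete a list or the genes of a count. The comparison, the lists and these genes were chosen with earlier results of these data known. The fit was tested on simulated data. In all, 17 alternatives were tried, among them each array left out, the pool letter as a block, the controls as 1 group, other scalings, a filter on dim genes, and an analysis of variance and a t-test, which the study names. The t-test was run here on unlogged values, with all 4 control pools as 1 group. The discussion of the study compares TEAD4-depleted with mCherry-Trim21 embryos, so these counts are not a rerun of its own test. Python 3.11.15 (pandas 2.3.3, numpy 2.4.6, matplotlib 3.10.9) was used for tables and figures. Precision is limited by the number of arrays.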

Additional observations from a re-analysis of the deposited data

Results flagged for a closer look

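Rows of the array outside the gene comparison also held differences. Of the 33142 rows with no gene symbol here, 255 (0.769%) had both anti-TEAD4 pools above all 4 control pools with a mean difference of at least 1, and 207 (0.625%) had both below. Of the 2176 rows with several symbols, 19 (0.873%) lay above and 7 (0.322%) below. For the genes with 1 symbol these shares were 0.484% above and 1.19% below. The rows were noted because they were not used in the comparison of genes, and the difference between the shares was not tested.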

How the results depend on the processing

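Without anti-TEAD4 pool a the balance of the comparison turned. It also turned in the t-test on unlogged values with the control pools as 1 group. The medians of the trophectoderm, junction and cholesterol lists stayed below 0 without either anti-TEAD4 pool and under centring, quantile normalization and the removal of dim genes. Without pool a, list medians that turned included 0.04 (−0.05 with all arrays) for pluripotency, 0.26 (−0.16) for mitochondrial ribosomal proteins, 0.05 (−0.24) for the respiratory chain and 0.20 (−0.19) for histones, and under centring −0.02 (0.12) for both ATF4 and p53 genes. The number of genes with an adjusted p under 0.05 in limma stayed at 0 in all settings but these: 17, all lower, with the controls as 1 group, and 4024 (2330 lower and 1694 higher) without anti-TEAD4 pool b, where the lone pool a is assumed to vary like the controls. Without pool a the number was 0. Over the fits that left out 1 array the number ranged from 0 to 4024, genes lower at an unadjusted p under 0.01 from 200 to 2719, genes higher from 71 to 2137, genes below the controls by at least 1 from 226 to 1980 and genes above from 160 to 1084. List medians ranged from −0.52 to −0.34 for trophectoderm factors, −1.61 to −1.02 for trophectoderm epithelial genes, −0.97 to −0.55 for tight junctions, −0.89 to −0.46 for adherens junctions and desmosomes, −1.09 to −0.44 for cholesterol synthesis and −0.25 to 0.04 for pluripotency. Without pool a, 524 of the genes at an unadjusted p under 0.01 were higher and 373 lower (58.4% higher, in place of 33.4%), and 296 lay above and 226 below the controls by at least 1.

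Genes higher at an unadjusted p under 0.01 numbered 105 under median centring, 112 with dim genes left out and 378 in the t-test on unlogged values, where 323 were lower. Genes lower numbered 227 in the analysis of variance, with 222 higher, and 328 with an intensity trend in the variance, with 283 higher. Median centring left 75 genes above the controls by at least 1. The median of trophectoderm factors was −0.60 under centring and −0.66 with dim genes left out. Quantile normalization shifted the median of all genes by −0.10. The analysis of variance gave 2152 and the t-test on unlogged values 2857 genes at an unadjusted p under 0.05, and both gave 0 after Benjamini-Hochberg adjustment. The cause of these shifts was not tested. The pool letters did not pair the samples: differences between pools a and b correlated at −0.51, 0.21 and −0.25 between groups. With the letter as a replicate block 0 genes passed the adjusted p, and 373 were lower and 165 higher at an unadjusted p under 0.01.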
